A study of Mus musculus with 8 samples.

Results

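Cybrd1, Cdhr3, Gucy1a3, Zfp608, Pla2g4f, Igsf3, Fsd1l and Arhgap20 are 8 of the 24016 genes measured by RNA sequencing in spleen CD4+ T cells. They were chosen for being higher in Treg than in non-Treg cells of polyclonal mice while having a much lower Treg minus non-Treg difference in monoclonal mice. Regulatory T (Treg) cells hold back immune responses and are defined by the transcription factor Foxp3, and here a green fluorescent protein (GFP) reporter of Foxp3 separated positive Treg from negative non-Treg cells. Treg and non-Treg cells of monoclonal mice and Treg and non-Treg cells of polyclonal mice gave 2 libraries each, replicates A and B, 8 in all. Monoclonal cells came from the strain NOD.TCRab.FoxP3GFP.Rag-/-, which carries a rearranged αβ T cell receptor and lacks a Rag gene of the recombinase that assembles receptors. The labels call these cells NT and T138, and the series title speaks of nuclear transfer, the cloning of an animal from the nucleus of a cell. Polyclonal cells came from NOD.FoxP3GFP mice with a diverse receptor repertoire, labelled WT. All groups share the NOD background, prone to autoimmune diabetes, and the reporter. Strain, Rag genotype and receptor differed together, so their parts in any difference between the mice cannot be told apart. Age and the number of animals behind a library are not given in the sources used here, so a p-value speaks of the spread between the libraries at hand, which may be technical only.

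These genes are not known for a shared pathway. Cybrd1 encodes duodenal cytochrome b, a membrane reductase that reduces iron with electrons from ascorbate. Igsf3 encodes a membrane protein of the immunoglobulin superfamily, related to the EWI proteins that partner with tetraspanins, and Cdhr3 a cadherin-related adhesion protein whose human form is a receptor for rhinovirus C. Gucy1a3 encodes the alpha subunit of soluble guanylate cyclase, the nitric oxide receptor that makes the second messenger cyclic GMP. Pla2g4f encodes a cytosolic phospholipase A2, an enzyme that frees fatty acids from membrane lipids. Arhgap20 encodes a GTPase-activating protein controlled by Rap1, a regulator of integrin adhesion. Zfp608 encodes a zinc finger protein known in mouse thymocytes for lowering Rag gene expression, and Fsd1l a protein with fibronectin type III and SPRY domains.

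Promoters are shown for the members with the largest polyclonal difference (Cybrd1), with the highest level in monoclonal non-Treg cells (Cdhr3), with 0 reads in both monoclonal Treg libraries (Gucy1a3) and with the most GC-rich window (Arhgap20). Each runs 5′ to 3′ from 250 bases before to 50 bases after the RefSeq start site, on GRCm38.p6. Capitals mark the motif matches found, AP-1 (TGANTCA) in Cybrd1 and TCF (CTTTGAN) in Cdhr3.
Cybrd1 (chr2:71117804-71118103, plus strand): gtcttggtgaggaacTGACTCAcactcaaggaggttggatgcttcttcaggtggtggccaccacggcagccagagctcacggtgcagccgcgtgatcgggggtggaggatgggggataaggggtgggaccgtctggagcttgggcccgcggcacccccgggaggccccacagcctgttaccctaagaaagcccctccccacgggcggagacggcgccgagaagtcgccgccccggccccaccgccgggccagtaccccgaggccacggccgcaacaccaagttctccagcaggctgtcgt
Cdhr3 (chr12:33092826-33093125, minus strand): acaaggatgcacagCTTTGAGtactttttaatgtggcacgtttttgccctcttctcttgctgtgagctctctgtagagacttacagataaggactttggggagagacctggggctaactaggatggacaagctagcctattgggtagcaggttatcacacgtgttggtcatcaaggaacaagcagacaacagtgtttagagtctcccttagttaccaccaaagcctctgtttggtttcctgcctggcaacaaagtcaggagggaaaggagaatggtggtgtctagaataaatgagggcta
Gucy1a3 (chr3:82145601-82145900, minus strand): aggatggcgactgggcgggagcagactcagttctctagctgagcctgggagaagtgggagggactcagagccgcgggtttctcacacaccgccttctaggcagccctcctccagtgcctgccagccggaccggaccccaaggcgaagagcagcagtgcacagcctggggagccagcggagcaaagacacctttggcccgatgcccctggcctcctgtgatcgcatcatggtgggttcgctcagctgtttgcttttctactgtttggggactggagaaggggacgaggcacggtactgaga
Arhgap20 (chr9:51765101-51765400, plus strand): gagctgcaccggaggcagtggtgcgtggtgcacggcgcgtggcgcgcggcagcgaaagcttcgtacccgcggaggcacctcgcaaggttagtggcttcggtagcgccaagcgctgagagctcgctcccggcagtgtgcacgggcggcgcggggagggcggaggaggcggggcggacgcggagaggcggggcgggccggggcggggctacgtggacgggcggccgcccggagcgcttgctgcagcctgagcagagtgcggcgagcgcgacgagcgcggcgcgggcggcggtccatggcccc
Such windows, 9 in all, were taken for 7 of the members. Their GC content ran from 46.7% in Cdhr3 to 77% in Arhgap20, and 7 of the 9 lay above 61.7%, the upper quartile of 32851 mouse promoters of the same length. Those 7 included both windows of Gucy1a3 and both of Fsd1l. The Cybrd1 window held the AP-1 letters 235 bases before the start, as did 7.81% of all promoters, and the Cdhr3 window held the TCF letters 236 bases before it, as did 16.0%. The second Gucy1a3 start held a RUNX match (TGTGGT, in 16.8% of all promoters). Both Fsd1l windows held the same NFAT site (GGAAAA, in 23.4%), which lies where the windows overlap. All letters were searched on both strands, and no window held matches of 2 motifs. Letters for forkhead (TGTTTAC, 3.65% of all promoters), STAT (TTCNNNGAA, 8.30%), ETS (CCGGAAG, 8.86%), NF-kB (4.59%) and CRE (TGACGTCA, 1.79%) did not occur in the 9 windows. A match is a description of these letters and was not tied to any factor.

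Depth was 14076330 to 19722321 reads a library, so that 3 reads, the most a count of 0 allows, correspond to 0.152 to 0.213 CPM (read counts scaled to a library total of 1000000), for counting error only. Foxp3 was at 2709 and 2667 CPM in Treg cells and 405 and 319 CPM in non-Treg cells of monoclonal mice, and 2350 and 2281 CPM in Treg cells and 81.9 and 84.2 CPM in non-Treg cells of polyclonal mice, and the 4 CD3 genes summed to 1230 to 2235 CPM in the 8 libraries. Markers of other cells were present in monoclonal libraries. The 8 dendritic cell markers summed to 412 and 355 CPM in Treg cells and 1583 and 1831 CPM in non-Treg cells of monoclonal mice, and 19.5 and 15.9 CPM in Treg cells and 43.0 and 37.6 CPM in non-Treg cells of polyclonal mice, with Itgax (CD11c) the highest in the monoclonal libraries, and with Clec9a and Batf3 at 0 in both polyclonal Treg libraries. The 8 B cell markers summed to 51.3 to 300.04 CPM in monoclonal and 28.9 to 70.4 CPM in polyclonal libraries, with Pax5 at 0 in all libraries except monoclonal non-Treg replicate A. The macrophage list summed to 166 to 478 CPM in monoclonal and 19.3 to 25.6 CPM in polyclonal libraries, and the neutrophil list to 73.8 to 1231 CPM in monoclonal and 14.8 to 48.2 CPM in polyclonal libraries, higher in replicate A of each group.

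Polyclonal Treg cells had the highest level of 6 of the 8 genes. Cdhr3 was higher in monoclonal non-Treg cells and Zfp608 was as high there, so a rise found only in polyclonal Treg cells did not describe those genes. In each of the 8 genes both polyclonal Treg libraries lay above both polyclonal non-Treg libraries and above both monoclonal Treg libraries. In 6 of the 8, both monoclonal non-Treg libraries lay above both polyclonal non-Treg libraries, the exceptions being Gucy1a3 and Arhgap20, whose non-Treg libraries overlapped. These separations are in part what the genes were chosen for and are given as description. The shares of all tested genes with such separations are not given here, so nothing is read from these counts.

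**Figure D1:**
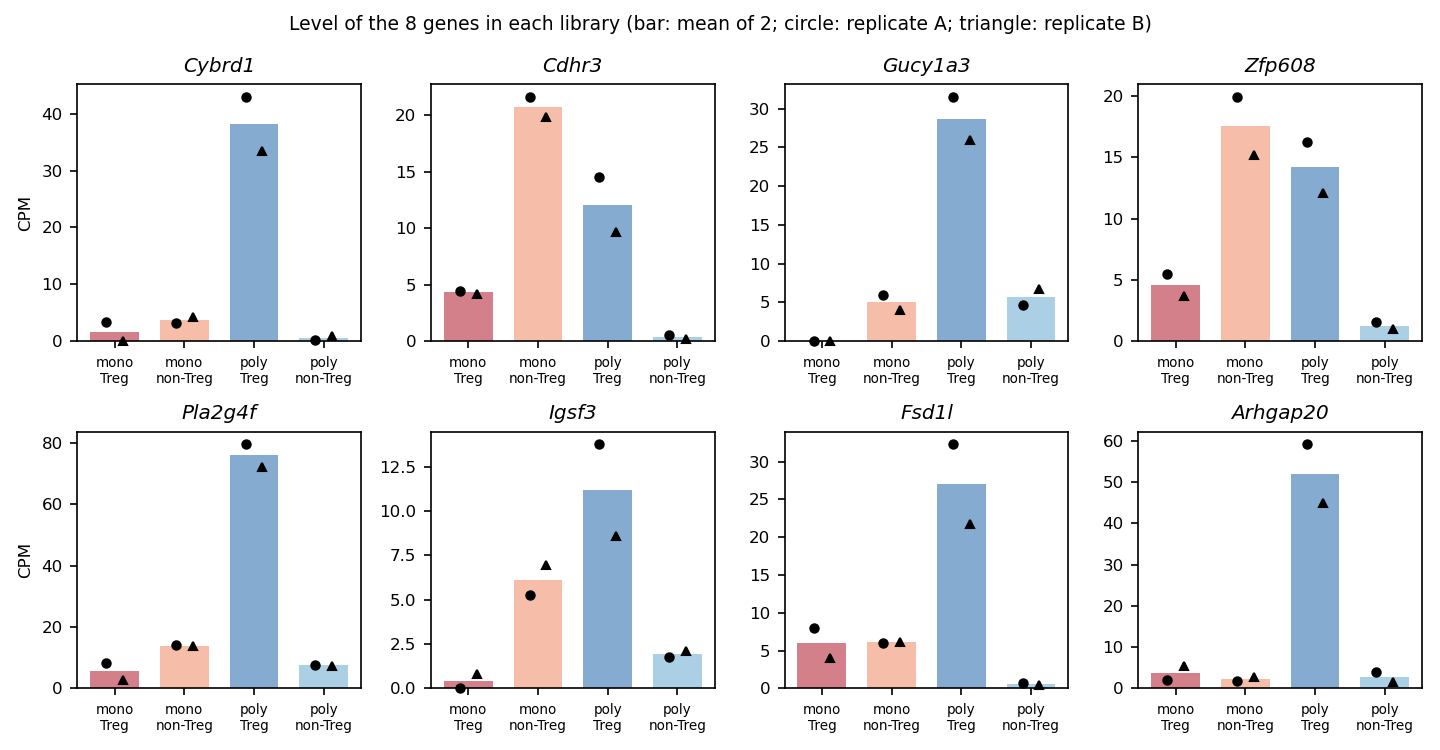
Level of each of the 8 genes in CPM (linear axis from 0, a scale for each gene) in Treg and non-Treg cells of monoclonal and then polyclonal mice; bars are means of 2 libraries, circles replicate A and triangles replicate B. Polyclonal Treg is the highest group in 6 panels, while Cdhr3 and Zfp608 have their highest mean, 20.7 and 17.6 CPM, in monoclonal non-Treg cells.

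Among the membrane proteins, Cybrd1 (chromosome 2, 70956111 to 70980983, plus strand, on mm9) had 3.29 and 0 CPM in Treg cells and 3.22 and 4.19 CPM in non-Treg cells of monoclonal mice, and 43.0 and 33.4 CPM in Treg cells and 0.127 and 0.904 CPM in non-Treg cells of polyclonal mice (replicates A and B). Polyclonal Treg cells stood apart from all other groups, and the monoclonal Treg libraries, with 50 and 0 reads, overlapped both kinds of non-Treg library. The ratio of mean CPM, Treg over non-Treg, was 74.1 in polyclonal mice, and the mean in monoclonal Treg cells was 4.30% of that in polyclonal Treg cells. On the log2(CPM + 1) scale, which understates changes of low genes, the Treg minus non-Treg difference was -1.18 ± 0.57 in monoclonal and 4.73 ± 0.57 in polyclonal mice (standard error, SE, from the limma fit over 8 libraries). The monoclonal value rests on which Treg library is kept, at -2.23 without monoclonal Treg replicate A and -0.13 without monoclonal Treg replicate B.

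Igsf3 (chromosome 3, 101181048 to 101266983, plus strand, mm9) had 0 and 0.791 CPM in Treg cells and 5.27 and 6.97 CPM in non-Treg cells of monoclonal mice, and 13.8 and 8.57 CPM in Treg cells and 1.77 and 2.13 CPM in non-Treg cells of polyclonal mice. The 4 groups did not overlap, with monoclonal Treg cells, at 0 and 14 reads, the lowest. Its Treg minus non-Treg log2 difference was -2.40 ± 0.43 in monoclonal and 2.01 ± 0.43 in polyclonal mice (SE), opposite in sign.

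Cdhr3 (chromosome 12, 33718661 to 33777740, minus strand, mm9) had 4.47 and 4.18 CPM in Treg cells and 21.6 and 19.9 CPM in non-Treg cells of monoclonal mice, and 14.5 and 9.63 CPM in Treg cells and 0.570 and 0.194 CPM in non-Treg cells of polyclonal mice. Here too no groups overlapped, and monoclonal non-Treg cells were the highest, 1.72-fold above polyclonal Treg cells by mean CPM and 54.4-fold above polyclonal non-Treg cells. Within monoclonal mice its mean in Treg cells was 20.8% of that in non-Treg cells, and within polyclonal mice the gene was 31.6-fold higher in Treg than in non-Treg cells (log2 differences -2.03 ± 0.37 and 3.23 ± 0.37, SE). Its highest group is also the one with the highest dendritic cell marker sum, 1583 and 1831 CPM, and the part of such cells in its level was not tested. In bulk samples fewer cells of a type and less RNA per cell cannot be told apart.

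Of the signalling enzymes, Gucy1a3 (chromosome 3, 81896349 to 81949799, minus strand, mm9) had 0 reads in both monoclonal Treg libraries and 5.93 and 4.06 CPM in non-Treg cells of monoclonal mice, and 31.5 and 25.9 CPM in Treg cells and 4.68 and 6.78 CPM in non-Treg cells of polyclonal mice. The non-Treg libraries of the mice overlapped, while the Treg libraries were the lowest in monoclonal and the highest in polyclonal mice. Against the floor of 3 reads a library, monoclonal Treg cells were at least 27.3-fold lower than monoclonal non-Treg and at least 157-fold lower than polyclonal Treg cells. The polyclonal Treg mean was 5.01 times the polyclonal non-Treg mean (log2 difference 2.15 ± 0.38, SE).

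Pla2g4f (chromosome 2, 120125693 to 120139901, minus strand, mm9) had 8.41 and 2.77 CPM in Treg cells and 14.0 and 13.8 CPM in non-Treg cells of monoclonal mice, and 79.7 and 72.3 CPM in Treg cells and 7.72 and 7.36 CPM in non-Treg cells of polyclonal mice. Polyclonal Treg cells were far above the rest, and monoclonal Treg overlapped polyclonal non-Treg libraries at the bottom. The gene had the highest level per length of the 8, 24.5 CPM per kb of transcript in polyclonal Treg cells, against 1.8 in monoclonal Treg cells. Its Treg minus non-Treg log2 difference was -1.32 ± 0.36 in monoclonal and 3.17 ± 0.36 in polyclonal mice (SE). Without monoclonal Treg replicate B, the lower of that pair, the monoclonal difference was -0.66.

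Arhgap20 (chromosome 9, 51573457 to 51661164, plus strand, mm9) had 1.97 and 5.42 CPM in Treg cells and 1.66 and 2.77 CPM in non-Treg cells of monoclonal mice, and 59.2 and 44.9 CPM in Treg cells and 3.86 and 1.42 CPM in non-Treg cells of polyclonal mice. The 3 groups other than polyclonal Treg overlapped one another. Treg over non-Treg mean CPM was 1.67 in monoclonal and 19.7 in polyclonal mice (log2 differences 0.46 ± 0.46 and 3.94 ± 0.46, SE). Without monoclonal Treg replicate B the monoclonal difference was -0.09. An antisense gene, Arhgap20os, overlaps it with 0 to 12 reads a library, and the labels do not say whether counting used strand.

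Zfp608 (chromosome 18, 55047699 to 55149834, minus strand, mm9) had 5.52 and 3.67 CPM in Treg cells and 20.0 and 15.2 CPM in non-Treg cells of monoclonal mice, and 16.3 and 12.1 CPM in Treg cells and 1.52 and 0.968 CPM in non-Treg cells of polyclonal mice. As for Cdhr3, monoclonal non-Treg and polyclonal Treg libraries were the high ones, but for Zfp608 these overlapped. The mean in monoclonal Treg cells was 26.1% of that in monoclonal non-Treg cells, whereas polyclonal Treg cells were 11.4-fold above polyclonal non-Treg cells (log2 differences -1.74 ± 0.36 and 2.76 ± 0.36, SE). The dendritic cell marker sum was highest in the same monoclonal non-Treg libraries, and its part in the level was not tested.

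Fsd1l (chromosome 4, 53644343 to 53719881, plus strand, mm9) had 8.02 and 3.95 CPM in Treg cells and 5.99 and 6.19 CPM in non-Treg cells of monoclonal mice, and 32.3 and 21.8 CPM in Treg cells and 0.696 and 0.452 CPM in non-Treg cells of polyclonal mice. The monoclonal groups overlapped and lay between the polyclonal ones. Treg over non-Treg mean CPM was 0.983 in monoclonal and 47.1 in polyclonal mice (log2 differences -0.09 ± 0.40 and 4.13 ± 0.40, SE). Without monoclonal Treg replicate B the monoclonal difference was 0.35.

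Read as a group, the members split by what happened in monoclonal mice. Cdhr3, Gucy1a3, Zfp608, Pla2g4f and Igsf3 were lower in both monoclonal Treg libraries than in both monoclonal non-Treg libraries, while Cybrd1, Fsd1l and Arhgap20 overlapped there. The share of all tested genes without overlap there is not given. In limma with Benjamini-Hochberg adjustment over 12881 genes at 0.05, 5 of 8 were lower in monoclonal Treg than non-Treg cells, where 13.6% of all genes were. There 0 of 8 were higher (0 at an unadjusted p under 0.05, 0 by edgeR and 0 by DESeq2), where 10.8% of all genes were higher and 24.4% called in all. In polyclonal mice 8 of 8 were higher in Treg cells, where 4.63% of all genes were higher, 3.28% lower and 7.9% called in all. The monoclonal minus polyclonal difference of the Treg effects was called lower for 8 of 8, where 5.56% of all genes were lower, 3.64% higher and 9.2% called in all. The genes were picked on these comparisons, which favoured such calls in advance, so nothing is read from the counts. The alternatives that follow describe how calls of single genes depend on the fit and lend them no support. By edgeR 7 of 8 were higher in polyclonal Treg cells (8 by DESeq2), and by DESeq2 7 of 8 had a lower Treg effect in monoclonal mice (8 by edgeR), Cybrd1 being the exception. The polyclonal call was lost for Igsf3 in 5 of 17 alternatives, among them leaving out polyclonal Treg replicate A or polyclonal non-Treg replicate A or B, and for Gucy1a3 without polyclonal non-Treg replicate A. The monoclonal call was lost for Pla2g4f in 5 of 17, among them leaving out monoclonal Treg replicate B or monoclonal non-Treg replicate A or B, and for Zfp608 without monoclonal non-Treg replicate A. The choice gave no numeric threshold. Of the 100 genes with a polyclonal log2 difference at least that of Igsf3 (2.01), 40 also had a monoclonal one no higher than that of Arhgap20 (0.46), and 32 of these are not members. Non-members were ranked among genes above a set mean level, with a positive polyclonal difference and a monoclonal one under 1 in size. The 6 with the most negative difference between the mice were Gpr83, Rgs1, Ntn4, Rragd, Lypd1 and Whrn. Gpr83, an orphan receptor typical of Treg cells, had 22.3 and 8.64 CPM in Treg cells and 25.3 and 15.5 CPM in non-Treg cells of monoclonal mice, and 214 and 228 CPM in Treg cells and 14.8 and 13.6 CPM in non-Treg cells of polyclonal mice. Rgs1, a regulator of G protein signalling, was high in both monoclonal groups (282.7 to 374 CPM) and in polyclonal Treg cells (199 and 224 CPM), against 32.7 and 32.5 CPM in polyclonal non-Treg cells.

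**Figure D2:**
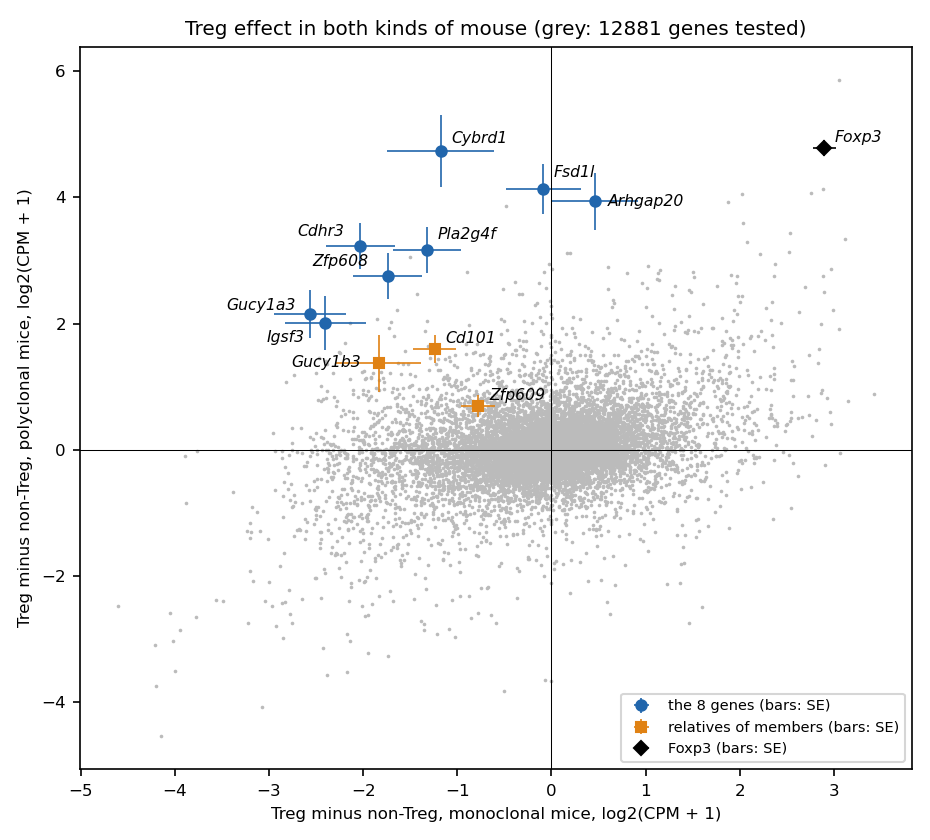
Treg minus non-Treg difference in log2(CPM + 1) for each of 12881 tested genes (grey), monoclonal mice on the x axis and polyclonal mice on the y axis, with SE bars for the 8 genes (blue circles), the relatives Gucy1b3, Cd101 and Zfp609 (orange squares) and Foxp3 (black diamond). The 8 genes lie between -2.57 and 0.46 on the x axis (monoclonal) and between 2.01 and 4.73 on the y axis (polyclonal).

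The level averaged over Treg and non-Treg cells differed in direction among the members. The choice of the genes bears on this mean too, since a high level in polyclonal Treg cells lowers the monoclonal minus polyclonal difference, so the values are a description with no p. Gucy1a3 was lowest, with a monoclonal minus polyclonal log2 difference of -2.53 ± 0.27 (SE). Negative means were also found for Arhgap20 (-1.85 ± 0.32), Pla2g4f (-1.44 ± 0.25), Cybrd1 (-1.28 ± 0.40) and Igsf3 (-0.94 ± 0.31). Cdhr3 (1.36 ± 0.26) and Zfp608 (0.80 ± 0.26) had positive means. Fsd1l lay near 0 (0.07 ± 0.28), with a log2 difference of -2.04 in Treg and 2.18 in non-Treg cells. By limma after adjustment 5 of the 8 counted as lower and 2 as higher, where 15.5% of all genes were lower, 15.4% higher and 30.9% called in all. By edgeR 3 were lower and 2 higher, and by DESeq2 4 were lower and 2 higher. The limma call was lost for Cybrd1 in 10 of 16 alternatives, for Igsf3 in 8 and for Zfp608 in 7. Nothing is read from these counts.

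Split by cell type, the monoclonal minus polyclonal log2 difference in Treg cells ran from -4.89 ± 0.38 for Gucy1a3 to -1.27 ± 0.37 for Cdhr3 (SE). In non-Treg cells it ran from -0.17 ± 0.38 for Gucy1a3 to 3.99 ± 0.37 for Cdhr3. Both values are without a test, because the choice of the genes bears on them. The non-Treg side set the members apart from one another: Cdhr3 and Zfp608 (3.05 ± 0.36) were far higher in monoclonal non-Treg cells, Fsd1l (2.18 ± 0.40) and Cybrd1 (1.68 ± 0.57) less so, and Gucy1a3 and Arhgap20 (-0.11 ± 0.46) lay near 0.

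**Figure D3:**
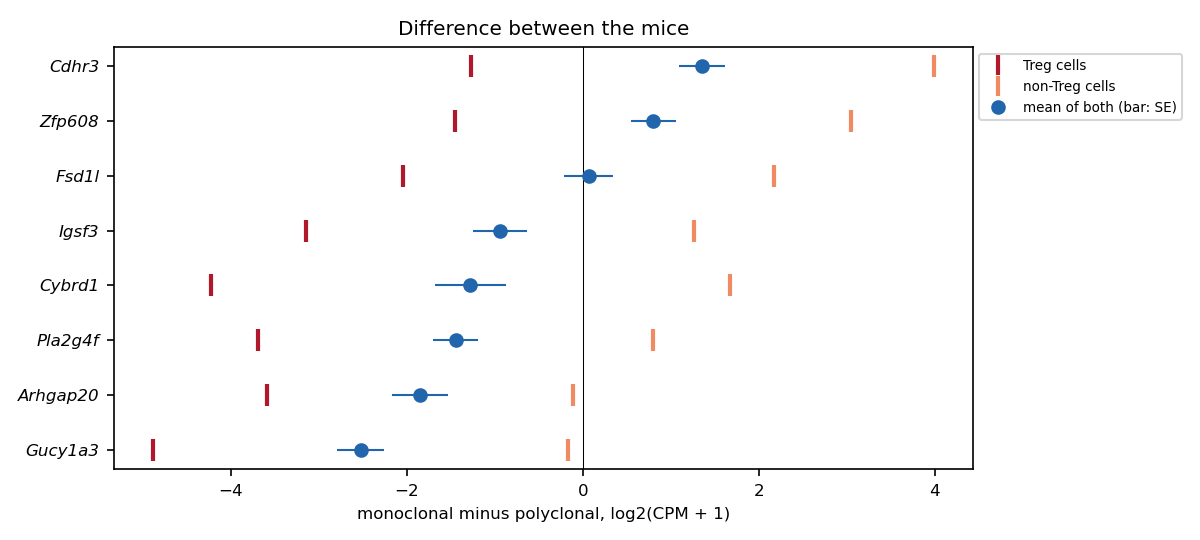
Monoclonal minus polyclonal difference in log2(CPM + 1) for each of the 8 genes, in Treg cells (red bars), in non-Treg cells (orange bars) and as the mean of both (blue circles with SE). All 8 are negative in Treg cells, and the means run from -2.53 for Gucy1a3 to 1.36 for Cdhr3.

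The partner subunit of Gucy1a3 showed the same order of groups at the bottom and top. Gucy1b3, the beta subunit of soluble guanylate cyclase, whose gene lies 17.7 kb from Gucy1a3 in the deposited table (chromosome 3, 81835926 to 81878633, mm9), had 0 reads in both monoclonal Treg libraries and 3.88 and 1.61 CPM in non-Treg cells of monoclonal mice, and 9.73 and 5.58 CPM in Treg cells and 2.22 and 2.26 CPM in non-Treg cells of polyclonal mice. It was lower in monoclonal Treg than non-Treg cells (log2 difference -1.84 ± 0.45, adjusted p = 0.00853), did not pass the threshold in polyclonal mice (1.38 ± 0.45, adjusted p = 0.0867), and its Treg effect differed between the mice by -3.21 ± 0.64 (adjusted p = 0.00613). Leaving out monoclonal non-Treg replicate A gave an adjusted p of 0.122 for the monoclonal effect and 0.05 for the difference, both no longer under the threshold. Averaged over the cell types it was lower in monoclonal mice (-1.46 ± 0.32, adjusted p = 0.00286). So neither subunit of the enzyme had a read in the monoclonal Treg libraries.

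Of the 18 other genes of cyclic GMP signalling listed, 8 were expressed enough to test. In monoclonal mice 1 was higher and 3 were lower in Treg cells, with a median log2 difference of -0.63 (all genes -0.02; 10.8% of all genes higher and 13.6% lower), and in polyclonal mice 0 were higher (1 at an unadjusted p under 0.05, 0 by edgeR and 0 by DESeq2) and 1 lower, with a median of 0.22 (all genes 0.0022; 4.63% higher and 3.28% lower). Pde2a, a phosphodiesterase that cyclic GMP stimulates, was at 695 and 629 CPM in Treg cells and 169 and 132 CPM in non-Treg cells of monoclonal mice, and 106 and 144 CPM in Treg cells and 120.0 and 142 CPM in non-Treg cells of polyclonal mice. It rose in monoclonal Treg cells (2.14 ± 0.16, adjusted p = 9.74e-07) and its Treg effect differed between the mice (2.21 ± 0.23, adjusted p = 6.7e-05), opposite in sign to the cyclase subunits. Pde3b, a phosphodiesterase that cyclic GMP inhibits, fell in Treg cells of both mice (-2.17 ± 0.39 in monoclonal, adjusted p = 0.0011, and -3.52 ± 0.39 in polyclonal mice, adjusted p = 4.51e-05). The synthases Nos1, Nos2 and Nos3, which make nitric oxide, were below the filter.

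Igsf3 had 2 relatives among the EWI proteins that also moved, both on the same stretch of chromosome 3. The EWI protein Igsf8, on chromosome 1, had Treg effects that did not pass the threshold (-0.07 ± 0.26 in monoclonal, adjusted p = 0.884, and 0.29 ± 0.26 in polyclonal mice, adjusted p = 0.661). Cd101, an EWI protein of T and myeloid cells (100797452 to 100826099, mm9), had 26.3 and 29.6 CPM in Treg cells and 60.7 and 74.6 CPM in non-Treg cells of monoclonal mice, and 28.8 and 28.1 CPM in Treg cells and 7.53 and 10.1 CPM in non-Treg cells of polyclonal mice. Its Treg effect was negative in monoclonal mice (-1.24 ± 0.23, adjusted p = 0.0012) and positive in polyclonal mice (1.60 ± 0.23, adjusted p = 0.000351), with a difference of -2.84 ± 0.32 (adjusted p = 0.0001). Its level was highest in monoclonal non-Treg libraries, as in Cdhr3, and those libraries also had the highest dendritic cell marker sum, whose part was not tested. Ptgfrn, another EWI protein (100844159 to 100914089, mm9), fell in monoclonal Treg cells (-1.20 ± 0.25, adjusted p = 0.00273), with 7.16 and 6.83 CPM in Treg cells and 18.1 and 16.7 CPM in non-Treg cells of monoclonal mice, and 30.3 and 27.4 CPM in Treg cells and 29.0 and 24.7 CPM in non-Treg cells of polyclonal mice. Its difference between the mice (-1.31 ± 0.35, adjusted p = 0.0315) was lost without polyclonal Treg replicate A (adjusted p = 0.0583), polyclonal non-Treg replicate A (0.107) or B (0.183), or monoclonal non-Treg replicate A (0.119) or B (0.115). Cd81, a tetraspanin that binds EWI proteins, was higher in Treg cells of both mice (1.59 ± 0.19 in monoclonal, adjusted p = 4.2e-05, and 1.94 ± 0.19 in polyclonal mice, adjusted p = 1.59e-05). Over the list of EWI proteins and tetraspanins, 15 were tested, of which 6 were higher and 3 lower in monoclonal Treg cells and 2 higher and 1 lower in polyclonal Treg cells, with median log2 differences of 0.20 and 0.15. Of all genes 10.8% were higher and 13.6% lower in monoclonal Treg cells, and 4.63% higher and 3.28% lower in polyclonal Treg cells.

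Zfp609, the paralog of Zfp608, had 46.6 and 35.0 CPM in Treg cells and 69.4 and 70.3 CPM in non-Treg cells of monoclonal mice, and 120.3 and 104 CPM in Treg cells and 77.1 and 61.1 CPM in non-Treg cells of polyclonal mice. Its Treg effect differed between the mice by -1.47 ± 0.26 (adjusted p = 0.00281, under 0.05 in each of 16 alternatives). The effect was negative in monoclonal mice (-0.78 ± 0.18, adjusted p = 0.0062), a call lost without monoclonal Treg replicate B (adjusted p = 0.0581) or monoclonal non-Treg replicate B (0.0663). It was positive in polyclonal mice (0.70 ± 0.18, adjusted p = 0.0284), a call lost in 9 of 17 alternatives, among them leaving out polyclonal Treg replicate A (adjusted p = 0.101), polyclonal non-Treg replicate A (0.0619) or B (0.386), or monoclonal non-Treg replicate A (0.0592) or B (0.0613). Rag1, which Zfp608 is known to lower in mouse thymocytes, was at 7.1 and 7.0 CPM in Treg cells and 3.27 and 8.97 CPM in non-Treg cells of monoclonal mice, and 0 and 1.17 CPM in Treg cells and 0.570 and 0 CPM in non-Treg cells of polyclonal mice. It was higher in monoclonal mice over both cell types (2.42 ± 0.37, adjusted p = 0.00016) and the Treg effect of neither mouse passed the threshold. The deleted Rag gene is not named in the labels, and Rag2 had 0 reads in all libraries except monoclonal non-Treg replicate A, with 1 read.

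**Figure D4:**
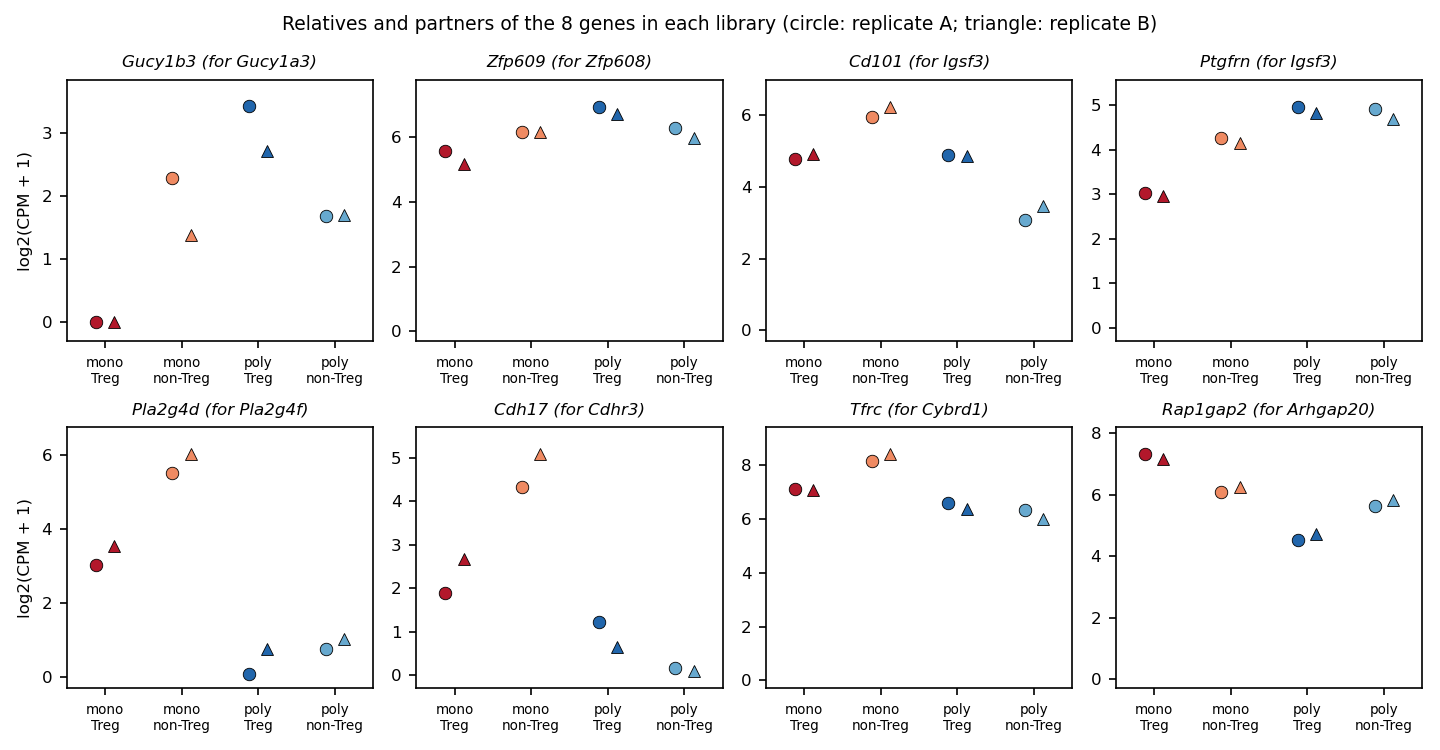
Level in log2(CPM + 1) of relatives of the 8 genes in Treg and non-Treg cells of monoclonal and then polyclonal mice; circles are replicate A, triangles replicate B, and each panel names the member its gene is listed for. Gucy1b3 is at 0 in monoclonal Treg cells, and Cd101, Pla2g4d, Cdh17 and Tfrc are highest in monoclonal non-Treg cells.

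Relatives of the other members had patterns of their own. Pla2g4d, which lies 10.9 kb from Pla2g4f and encodes another cytosolic phospholipase A2, had 7.16 and 10.8 CPM in Treg cells and 45.3 and 64.5 CPM in non-Treg cells of monoclonal mice, and 0.0710 and 0.710 CPM in Treg cells and 0.696 and 1.03 CPM in non-Treg cells of polyclonal mice. It was higher in monoclonal mice (3.87 ± 0.28, adjusted p = 9.63e-08). Of 17 tested genes of phospholipase A2 and eicosanoid metabolism, 4 were higher and 6 lower in monoclonal Treg cells, 3 higher and 1 lower in polyclonal Treg cells (median log2 differences -0.08 and 0.37), and 7 were higher and 3 lower in monoclonal mice over both cell types. Of all genes 10.8% were higher and 13.6% lower in monoclonal Treg cells, 4.63% higher and 3.28% lower in polyclonal Treg cells, and 15.4% higher and 15.5% lower in monoclonal mice. The dendritic cell markers summed to 355 to 1831 CPM in monoclonal and 15.9 to 43.0 CPM in polyclonal libraries and the macrophage markers to 166 to 478 CPM in monoclonal and 19.3 to 25.6 CPM in polyclonal libraries, and their part in these levels, that of Pla2g4d included, was not tested. Ptgs2, the inducible cyclooxygenase, was found in monoclonal cells (9.20 and 8.53 CPM in Treg cells, 37.9 and 31.7 CPM in non-Treg cells) and had 0 reads in the polyclonal libraries.

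Among cadherins 9 were tested, and 2 were lower in monoclonal Treg cells (13.6% of all genes) and 1 was higher in polyclonal Treg cells (4.63%), with median log2 differences of -0.48 and -0.53. None was higher in monoclonal or lower in polyclonal Treg cells by limma after adjustment, where 2 and 1 were at an unadjusted p under 0.05, and 0 in either case by edgeR or DESeq2. Cdh17, a cadherin of gut and B lineage cells, was highest where Cdhr3 was, at 2.69 and 5.42 CPM in Treg cells and 19.02 and 33.0 CPM in non-Treg cells of monoclonal mice, and 1.35 and 0.558 CPM in Treg cells and 0.127 and 0.0645 CPM in non-Treg cells of polyclonal mice. Its Treg effect was -2.42 ± 0.45 in monoclonal mice (adjusted p = 0.00135), and it differed between the mice by -3.23 ± 0.64 (adjusted p = 0.00583), a call lost without monoclonal non-Treg replicate B (adjusted p = 0.068). The B cell marker sum was also highest in monoclonal non-Treg libraries, at 262 and 300.04 CPM, and its part was not tested.

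Of 16 tested genes of iron transport and reduction, 1 was higher and 2 were lower in monoclonal Treg cells, where 10.8% and 13.6% of all genes were. In polyclonal Treg cells, where 7.9% of all genes were called, 0 were called by limma after adjustment, 0 at an unadjusted p under 0.05, and 0 by edgeR or DESeq2 (median log2 differences -0.01 and 0.14). The higher one was Steap3, a metalloreductase (1.48, adjusted p = 0.0382), whose call was lost in 10 of 17 alternatives, with 0 genes of the list higher by edgeR and 0 by DESeq2. Of the libraries, leaving out polyclonal non-Treg replicate A or B, monoclonal Treg replicate B or monoclonal non-Treg replicate A or B undid it. Tfrc, the transferrin receptor that takes up iron, was at 139 and 135 CPM in Treg cells and 289 and 339 CPM in non-Treg cells of monoclonal mice, and 96.8 and 81.1 CPM in Treg cells and 80.8 and 63.5 CPM in non-Treg cells of polyclonal mice. Tfrc was lower in monoclonal Treg than non-Treg cells (-1.19 ± 0.15, adjusted p = 8.19e-05) and its Treg effect differed between the mice (-1.49 ± 0.22, adjusted p = 0.00083). Its monoclonal Treg libraries still lay above all polyclonal libraries. The level was highest in monoclonal non-Treg libraries, which also had the highest dendritic cell marker sum, whose part was not tested. Slc39a14, a transporter of zinc and iron, was also lower in monoclonal Treg than non-Treg cells (-1.17 ± 0.21, adjusted p = 0.00113).

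Rap1gap2, which switches off Rap1, had 158 and 143 CPM in Treg cells and 67.3 and 74.8 CPM in non-Treg cells of monoclonal mice, and 22.0 and 25.7 CPM in Treg cells and 49.0 and 55.3 CPM in non-Treg cells of polyclonal mice. Its Treg effect was opposite in sign between the mice, positive in monoclonal (1.08 ± 0.17, adjusted p = 0.000316, and 0.0881 when scaled to the CD3 genes) and negative in polyclonal mice (-1.10 ± 0.17, adjusted p = 0.000547), with a difference of 2.18 ± 0.23 (adjusted p = 7.55e-05). Rapgef4, an exchange factor that activates Rap1, was lower in Treg cells of both mice (-3.94 ± 0.37 in monoclonal, adjusted p = 4.43e-06, and -2.86 ± 0.37 in polyclonal mice, adjusted p = 0.000153). Of the 5 tested relatives of Fsd1l, 2 were higher (1 by edgeR and 1 by DESeq2) and 1 was lower in monoclonal Treg cells. In polyclonal Treg cells 1 was higher. Of all genes 10.8% were higher and 13.6% lower in monoclonal Treg cells, and 4.63% higher in polyclonal Treg cells. Trim46, a microtubule-associated protein, was higher in Treg cells of both mice (1.92 ± 0.32 in monoclonal, adjusted p = 0.00056, and 1.74 ± 0.32 in polyclonal mice, adjusted p = 0.00262). The polyclonal call for Trim46 was lost without polyclonal non-Treg replicate A. Mid1, another of these relatives, was lower in monoclonal Treg cells (-2.15 ± 0.54, adjusted p = 0.0137), a call lost in 3 of 17 alternatives.

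The nearest tested gene on each side was taken to see whether neighbours moved with the members. Of these 16 genes, 3 were higher and 5 lower in monoclonal Treg cells (10.8% and 13.6% of all genes), 2 higher and 1 lower in polyclonal Treg cells (4.63% and 3.28%), and the difference of the effects was called lower for 3, where 5.56% of all genes were. The 3 were Gucy1b3, Pla2g4d and Slc44a1. By edgeR 1 neighbour was higher in polyclonal Treg cells (2 by DESeq2), and the difference was called lower for 2 by edgeR and 2 by DESeq2. The polyclonal limma call of Sypl, beside Cdhr3 (0.72 ± 0.20, adjusted p = 0.0423), was lost with TMM scaling and by edgeR. The Pla2g4d difference (-2.03 ± 0.57, adjusted p = 0.0386) was lost without polyclonal Treg replicate B (adjusted p = 0.076), polyclonal non-Treg replicate A (0.152) or B (0.104), monoclonal Treg replicate A (0.0687), or monoclonal non-Treg replicate A (0.0882) or B (0.229). Slc44a1, a choline transporter whose gene ends 8.99 kb before Fsd1l, had 9.33 and 9.6 CPM in Treg cells and 25.8 and 26.9 CPM in non-Treg cells of monoclonal mice, and 20.9 and 15.4 CPM in Treg cells and 12.2 and 8.97 CPM in non-Treg cells of polyclonal mice. Its Treg effect was -1.39 ± 0.28 in monoclonal (adjusted p = 0.00241) and 0.72 ± 0.28 in polyclonal mice (adjusted p = 0.159), and differed by -2.11 ± 0.39 (adjusted p = 0.00419). Beside Igsf3, Cd2, an adhesion receptor of T cells, was higher in Treg cells of monoclonal (1.25 ± 0.15, adjusted p = 4.49e-05) and polyclonal mice (0.75 ± 0.15, adjusted p = 0.00511, and 0.0693 without polyclonal non-Treg replicate A). Beside Cybrd1 the genes Dcaf17 and Dync1i2 had Treg effects that did not pass the threshold.

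The members differed in level as well as in pattern. Per kb of transcript, polyclonal Treg cells had 24.5 CPM of Pla2g4f, 8.20 of Arhgap20, 7.34 of Cybrd1, 6.19 of Gucy1a3, 4.12 of Cdhr3, 3.63 of Fsd1l, 2.33 of Zfp608 and 1.53 of Igsf3. Over the 8 libraries the log2 levels of member pairs correlated with a Pearson r of 0.25 to 0.99 (28 pairs, median 0.72), a description of libraries on which the genes were chosen. All 8 were higher in replicate A than in replicate B of polyclonal Treg cells, by a median of 0.39 on the log2 scale, where 45.6% of all tested genes were higher in A, and replicate A was also the library with the fewest reads. The neutrophil marker sum was 48.2 CPM in replicate A and 16.3 CPM in replicate B of that group, and its part in this offset was not tested.

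Non-members with the most similar profile over the 8 libraries were picked among 2622 expressed and variable genes. Pearson r was 0.994 for Nlgn2 with Fsd1l, 0.986 for Whrn with Pla2g4f, 0.982 for Kif18a with Gucy1a3, 0.982 for Ift80 with Arhgap20, 0.967 for Tbc1d32 with Igsf3, 0.963 for Tns1 with Cdhr3, 0.956 for Eno3 with Zfp608 and 0.954 for Gpr83 with Cybrd1. With the mean profile of the 8 genes the nearest were Cd83 (0.953), Whrn (0.943), Ptprs (0.934), Foxm1 (0.934), Slc9a5 (0.930) and Dtl (0.920). The points are the same 8 libraries in 4 groups, so these values mostly describe differences between group means.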

How the data were processed

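RNA was extracted from sorted spleen CD4+ cells, selected with poly-dT beads with strand kept, and sequenced as single-end 50 bp reads, per the labels' protocols. Per the submitters' processing notes the tools were STAR 2.4.1a, HOMER 4.7, Trimmomatic 0.33, FastQC 0.10.1, CASAVA 1.8.2 and edgeR, with the build mm9, but what each did is not stated. The authors deposited a table of CPM values for 24016 genes with a RefSeq transcript and mm9 position for each. Every value (100%) was a multiple of what 1 read is worth, to 0.01 read, which gave back the read counts (14076330 to 19722321 a library). No per-sample column was left unused.

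Because the deposited unit is CPM, log2(CPM + 1) values were tested with limma 3.58.1 in R 4.3.3 (trend and robust options) for the 12881 genes that reached 1 CPM in 2 or more libraries. It fitted 4 group means to 8 libraries (residual df 4, median prior df 10), was 2-sided, and adjusted p-values by Benjamini-Hochberg over all genes tested at 0.05. It was tested on simulated data first. Alternatives were pseudocounts of 0.25 and 4 CPM, no filter, TMM and CD3 scaling, edgeR 4.0.16 and DESeq2 1.42.0 on the recovered reads, a replicate term, leaving out each library, and fits of 4 libraries. The members' differences between the mice are given without p, since the choice of the genes bears on them. Counts of members called are description for the same reason. Errors are SE from the fit. Folds are ratios of mean CPM.

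The members and the lists of relatives and markers were chosen with earlier results of these data known. Genes were named by rule. These were the members, up to 4 called relatives of each by size of difference (a subset is described), and the nearest tested neighbours. Also named were the most similar profiles and 6 non-members. Those 6 had the most negative difference between the mice among genes above a set mean level, with a positive polyclonal difference and a monoclonal one under 1 in size. Igsf8 was added as an EWI protein. Promoter windows are RefSeq sequences on GRCm38.p6 of the C57BL/6J reference, not of the NOD strain, and deposited positions are on mm9. Windows were matched by the RefSeq transcript of each gene (Gucy1a3 is named Gucy1a1 there), except that none was taken for Zfp608. Its promoter was therefore not examined.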

Additional observations from a re-analysis of the deposited data

Results flagged for a closer look

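In 5 of the 8 genes both monoclonal Treg libraries moved below both monoclonal non-Treg libraries while both polyclonal Treg libraries moved above both polyclonal non-Treg libraries. The monoclonal minus polyclonal Treg effect was -5.26 for Cdhr3, -4.72 for Gucy1a3, -4.50 for Zfp608, -4.49 for Pla2g4f and -4.41 for Igsf3 on the log2 scale. No p is given for these differences and their calls are not read as tests, because the genes were chosen on them. The share of all tested genes separated in this way is not given here, so nothing is read from the count.

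The limma test of the difference itself passed after Benjamini-Hochberg adjustment for 15 genes among the neighbours and the relatives named by rule, at most 4 called ones of each member, which are not all the relatives listed. It was negative for Cdh17 (-3.23), Gucy1b3 (-3.21), Cd101 (-2.84), Slc44a1 (-2.11), Pla2g4d (-2.03), Ptgs2 (-1.86), Tfrc (-1.49), Zfp609 (-1.47), Slc39a14 (-1.38), Ptgfrn (-1.31) and Tspan13 (-1.03). It was positive for Pde2a (2.21), Rap1gap2 (2.18), Arhgap29 (1.94) and Arhgap31 (1.24). The call for Ptgs2 was lost in 11 of 16 alternatives, for Pla2g4d and Arhgap31 in 10, for Arhgap29 in 9, for Ptgfrn in 5 and for Slc39a14 in 4. Pla2g4d had an adjusted p of 0.281 with a pseudocount of 0.25 CPM, and Ptgs2, with 0 reads in the polyclonal libraries, has no Treg effect there by construction.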

How the results depend on the processing

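Scaled to the CD3 genes, the called genes numbered 4835 in monoclonal and 560 in polyclonal mice, against 3143 and 1018 as reported. That scaling shifted the all-gene median log2 difference by -0.53 in monoclonal mice, by -0.55 for the difference of the Treg effects and by 0.20 between the mice. The split of higher and lower genes became 411 and 4424 in monoclonal mice (1396 and 1747 as reported), 84 and 1629 for the difference (469 and 716) and 2339 and 514 between the mice (1990 and 1992). A fit of the 4 polyclonal libraries called 673 genes, and testing without a filter called 756 for the difference (1185 as reported). Leaving out a library gave 1300 to 3780 genes in monoclonal mice, 435 to 1236 in polyclonal mice, 395 to 1663 for the difference, and 4 to 6 members called between the mice (7 as reported, as description). The members' median polyclonal log2 difference of 3.20 became 3.80 and 2.30 with pseudocounts of 0.25 and 4 CPM, 3.88 in edgeR and 3.89 in DESeq2. Deviations of same-lettered replicates correlated at -0.093 to 0.0969, none over 0.1, so they were not treated as pairs, though the neutrophil marker sum was higher in replicate A of each group. A replicate block gave 3032 called genes in monoclonal mice, 945 in polyclonal mice, 1094 for the difference and 3820 between the mice. With 0 to 50 reads in monoclonal Treg libraries, the levels of Gucy1a3, Igsf3 and Cybrd1 there are limited by depth.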
